A study of Mus musculus with 3 samples.

Results

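Baseline microglia of the control library are 3121 cells of the 6163 barcodes in that library and of the 18340 barcodes in the whole series. A cell was counted in this group when it had over 200 and at most 8000 genes, at most 10% of its UMIs in mitochondrial genes, and 3000 or more but fewer than 12000 UMIs. It also had to carry at least 10 UMIs of P2ry12, Tmem119, Sall1 and Siglech together. A UMI (unique molecular identifier) marks a captured RNA molecule, so a UMI count is a count of molecules. The members were thus chosen by measured values, namely the UMIs of 4 marker genes, the UMI total, the number of genes and the mitochondrial share, and values of these are given as descriptions with no test.

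Microglia are the resident macrophages of the brain. They arise from yolk sac progenitors, renew themselves locally and depend on the receptor Csf1r for survival. At rest they survey the tissue through purinergic and chemokine receptors, make complement C1q, and hold a large lysosomal system with which they digest what they engulf. TGF-beta and transcription factors such as Sall1, Spi1 and Mef2c keep this resting, or homeostatic, state.

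The control library came from the brains of 2 pooled male mice aged 8 weeks by the label, with the genotype wild type and no human CD33 transgene. The study also holds an hCD33M and an hCD33m library, not compared here. Elsewhere in the study wild type controls were heterozygous for Cx3cr1-Cre, and whether the mice of this library carried it is not given in the sources used here. The brains were perfused and kept cold in the presence of inhibitors of transcription (actinomycin D, triptolide), and the storage buffer also held an inhibitor of translation (anisomycin). Cells were sorted as CD11b+ CD45(low) Cx3cr1+ and their 3′ ends were read on the 10x Chromium platform. With 1 library from a pool, cells are not replicates. The spread between mice cannot be seen, and no p is given. Intervals are at 95% and cover counting error only.

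Of the 6163 barcodes, 5891 passed the limits on genes and mitochondrial share. Among these, 2243 held fewer than 3000 UMIs and 476 held 12000 or more, which left 3172 cells within the range. Of the 3172, 3121 (98.4%) reached the marker minimum and 51 (1.61%) did not. The members had a median of 5419 UMIs and 2324 genes, and together 18298327 UMIs. Their median mitochondrial share was 1.43%. The control library shared 4 cell barcodes with the hCD33M library and 12 with the hCD33m library.

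The summed marker UMIs ran from 10 to 134 per member with a median of 41, so most members lay far above the minimum. Just inside it, 6 cells had a sum of 10 or 11, and just outside it 9 cells had a sum of 8 or 9. Csf1r stood at 2771 CPM (the UMIs of a gene per 1000000 UMIs) in the 6 cells inside and 2210 CPM in the 9 cells outside, and C1qa at 10702 and 13187 CPM. Apoe stood at 810.1 CPM inside and 18800 CPM outside, and Lyz2 at 938 and 1391 CPM. Near the threshold the rule therefore parted cells that were closer in Csf1r and C1qa than in Apoe.

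**Figure D1:**
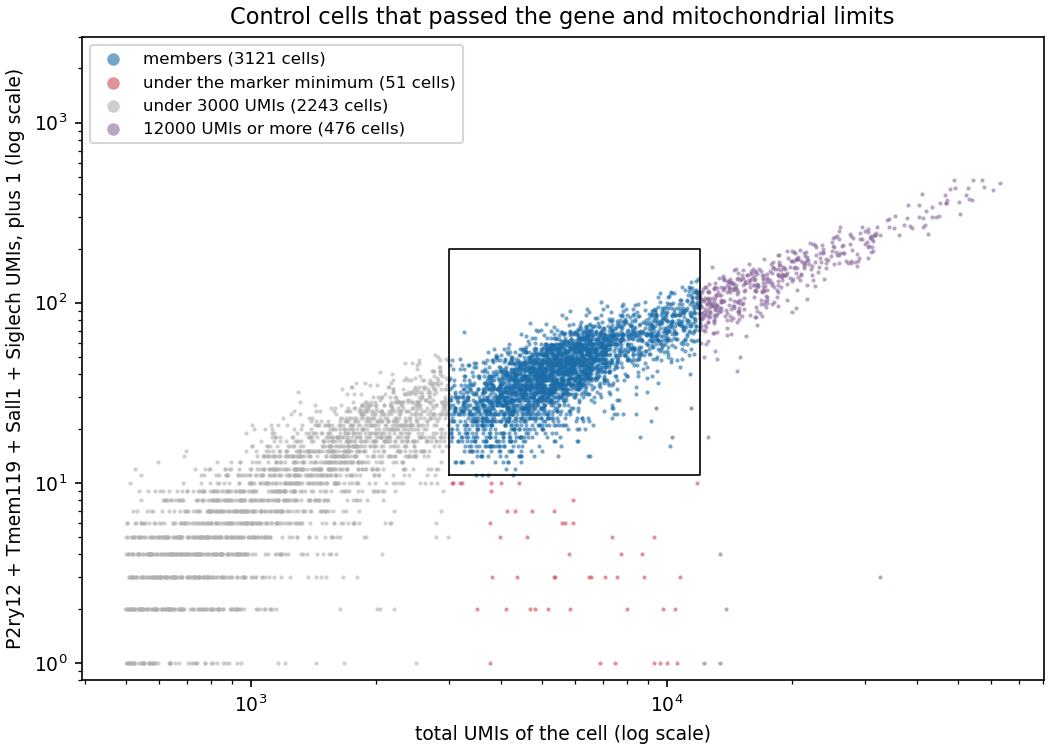
Each point is a control cell that passed the gene and mitochondrial limits, placed by its total UMIs and by its summed UMIs of P2ry12, Tmem119, Sall1 and Siglech plus 1, both on log scales. The box marks the 3121 members, the 51 cells below it within the range are those under the marker minimum, and 2243 and 476 cells lie to the left and right of it.

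The label was checked with 11 further microglial genes that the rule did not use. All 11 stood at 795 CPM or more. Csf1r, the receptor for the survival factors of microglia, stood at 3632 CPM, and Cx3cr1, the fractalkine receptor, at 3391 CPM. The matricellular gene Sparc had 3620 CPM, Selplg 3223 CPM, Trem2 2588 CPM, Olfml3 2292 CPM, C1qa 11100 CPM, Gpr34 2247 CPM, Fcrls 2074 CPM and P2ry13 795 CPM. After each cell was thinned at random to 3000 UMIs, Csf1r was found in every member (100%), and the lowest share was 88.0% for P2ry13. Since the sort gated on Cx3cr1, its level is no independent sign of identity.

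Markers of other cells were low. The 8 border associated macrophage genes summed to 20.5 CPM, the 8 monocyte genes to 9.56 CPM, 5 of 7 listed neutrophil genes to 2.68 CPM and the 5 neuronal genes to 2.95 CPM. Of the T and NK cell list 1 gene was in the table, at 4.48 CPM. Ighm, the immunoglobulin mu heavy chain, stood at 297 CPM and made up most of the B cell sum of 339 CPM, with Cd79b at 41.7 CPM. Slc1a3, a glutamate transporter best known from astrocytes, stood at 222 CPM, while the astrocyte gene Aldoc had 0.492 CPM. The oligodendrocyte list summed to 105 CPM, the endothelial list to 27.4 CPM, the ependymal and choroid plexus list to 0.383 CPM and the pericyte list to 0.164 CPM, and erythroid and oligodendrocyte precursor genes were not in the table used. Of the 3121 members, 8 carried 10 or more UMIs of border associated macrophage genes, with 13 to 64 UMIs of the rule's genes. No caller of doublets was run, and whether these 8 are doublets was not tested.

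The genes of the rule were as follows. P2ry12, the ADP receptor that steers microglial processes, stood at 3410 CPM, with 3, 10 and 18 UMIs per 3000 at the 5th, 50th and 95th percentile of cells and 38 in the highest. Siglech, a sialic acid binding lectin, stood at 2119 CPM with 2, 6 and 13 UMIs per 3000 at the same percentiles. Tmem119, a membrane protein of unsettled function, stood at 1561 CPM with 1, 4 and 9 UMIs. Sall1, a transcription factor that guards microglial identity, was the least abundant at 418 CPM and was found in 69.2% of thinned cells, against 97.6% to 99.8% for the other three. In 13 control cells with at least 10 UMIs of monocyte genes and a marker sum under 10, P2ry12 was found in 30.8% of cells thinned to 3000 UMIs (exact interval 9.09% to 61.4%) and Sall1 in none of the 13 (0 to 24.7%). Those 13 cells had a median of 9320 UMIs, against 5419 in the members. Siglech was found in 7.69% of them (0.195% to 36.0%) and Tmem119 in none (0 to 24.7%). Another 24 control cells had at least 10 UMIs of border associated macrophage genes and a marker sum under 10. In these, thinned alike, P2ry12 was found in 45.8% (25.6% to 67.2%), Tmem119 and Siglech in 29.2% each (12.6% to 51.1%) and Sall1 in 4.17% (0.105% to 21.1%). The rule itself parted the members from these cells by the 4 genes, so nothing is read from the difference. Since the marker sum of each set was capped, the shares are bounded by the choice of cells and do not measure free RNA.

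The UMIs of the members were held by few genes. The most abundant gene, Cst3, took 5.38% of all UMIs, the 10 most abundant 16.8%, the 50 most abundant 26.7% and the 500 most abundant 53.6%, out of 14534 genes with at least 1 UMI. In all, 110 genes reached 1000 CPM on average and 21 genes had a UMI in each of the 3121 cells. A 3′ library tags a molecule once, so these levels were compared as UMIs without division by gene length.

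Complement, lysosomal and actin genes and Malat1 stood at the head of this order. Cst3, cystatin C, a secreted inhibitor of cathepsins, stood at 53803 CPM (interval 53696 to 53909), with 83 UMIs per 3000 at the 5th percentile, 156 at the median and 259 at the 95th. Malat1, a long noncoding RNA kept in the nucleus, came next with 43803 CPM (43707 to 43899) and 70, 130 and 221 UMIs per 3000. Every other gene was several times lower. Tmsb4x, which binds actin monomers, stood at 11296 CPM and Actb, beta actin, at 6490 CPM. The 3 chains of C1q stood at 11100 CPM for C1qa, 9198 CPM for C1qb and 7500 CPM for C1qc. Ctsd and Ctss, an aspartic and a cysteine protease of the lysosome, stood at 7519 and 6686 CPM, and Lgmn, an asparagine endopeptidase, at 3282 CPM. The 28 lysosomal genes together, Cst3 included, took 10.1% of all UMIs, the 68 cytoplasmic ribosomal protein genes 6.63% and the 14 complement genes 2.99%. Itm2b, a membrane protein that limits amyloid formation, Marcks, an actin-linked membrane protein, Tyrobp, the adaptor of Trem2, and the tetraspanin Cd81 stood at 4949, 3166, 2905 and 2837 CPM. Gm42418, an annotated gene that overlaps ribosomal RNA sequence, had 3846 CPM. Mouse Cd33 was found at 507 CPM. The 3 C1q chains lay closer to each other than to Cst3, and no 2 neighbours among the 25 most abundant genes differed as much as Malat1 and Tmsb4x.

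**Figure D2:**
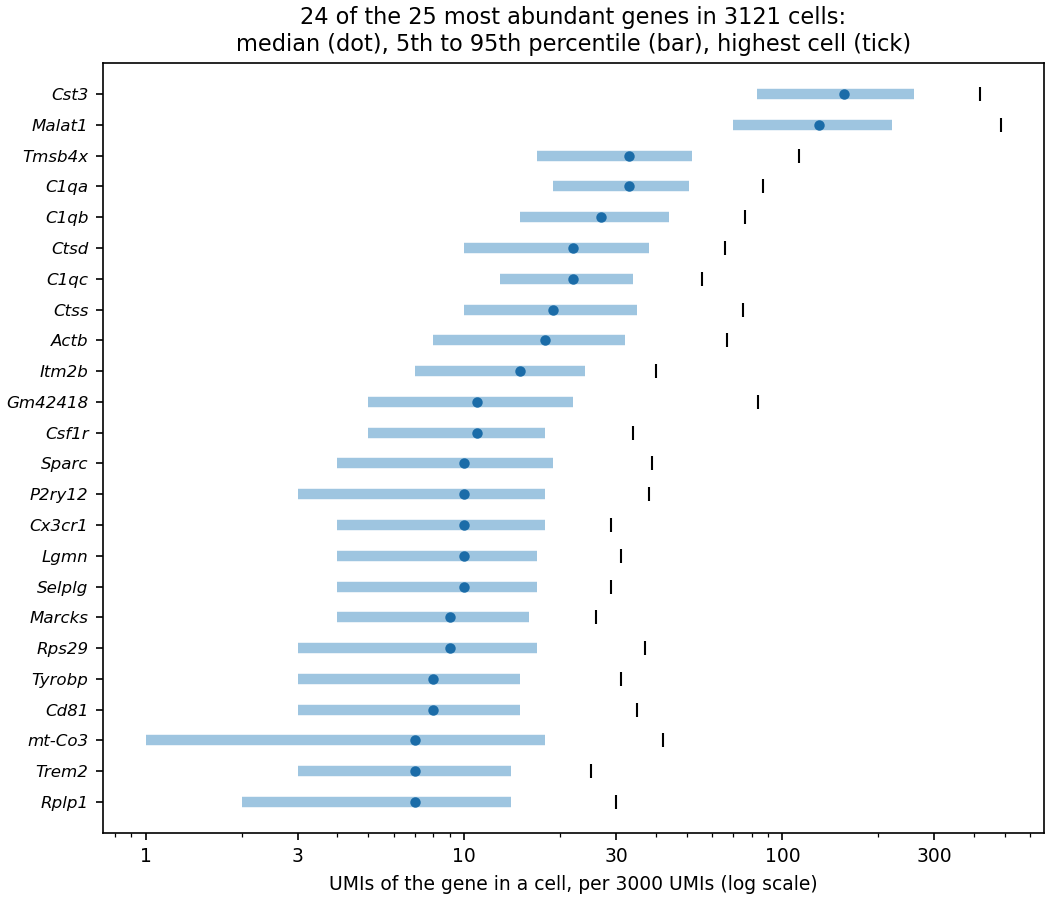
UMIs per cell, thinned to 3000 UMIs and on a log scale, for 24 of the 25 most abundant genes in the 3121 members. Dots are medians, bars run from the 5th to the 95th percentile and ticks mark the highest cell; Cst3 (median 156) and Malat1 (median 130) stand apart, and mt-Co3 has the widest bar, from 1 to 18.

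The C1q genes were also those whose levels moved together most closely among nuclear genes, so the promoters that the RefSeq table holds for them are printed here. The genes lie side by side on chromosome 4, with C1qb at chr4:136880129-136886187, C1qc at chr4:136889804-136893065 and C1qa at chr4:136895917-136898803, all on the minus strand (GENCODE M21, GRCm38). RefSeq windows of 300 bases on GRCm38.p6, from 250 bases before the start into the first 50 bases of the gene, were chr4:136886151-136886450 for C1qb and chr4:136892865-136893164 for C1qc. They are written 5′ to 3′ on the strand of the gene, with capitals on the letters GAGGAA or their reverse complement, the core bound by the myeloid factor PU.1.
C1qb: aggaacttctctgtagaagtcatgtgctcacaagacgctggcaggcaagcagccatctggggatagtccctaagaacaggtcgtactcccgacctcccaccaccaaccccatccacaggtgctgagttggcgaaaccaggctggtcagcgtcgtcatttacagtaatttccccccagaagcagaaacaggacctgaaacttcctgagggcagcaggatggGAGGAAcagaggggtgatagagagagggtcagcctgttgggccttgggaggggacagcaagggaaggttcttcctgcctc
C1qc: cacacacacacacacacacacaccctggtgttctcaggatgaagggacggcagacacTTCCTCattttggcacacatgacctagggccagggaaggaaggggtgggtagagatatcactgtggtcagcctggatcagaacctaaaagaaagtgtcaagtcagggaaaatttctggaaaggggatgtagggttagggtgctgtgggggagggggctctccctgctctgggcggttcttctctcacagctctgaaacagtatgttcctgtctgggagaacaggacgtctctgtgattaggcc
The 2 windows held 1 match each, which began 30 bases before the start in C1qb and 193 bases before it in C1qc. The core was found in 28.3% of 32851 such windows genome-wide and in 6 of 11 windows of complement genes (54.5%), so a match is common and was read as a description of the sequence.

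The spread between cells was measured as an extra CV, which is the SD of a gene's share of the UMIs across cells divided by its mean, with counting error taken out. Shares are scaled by the total of the cell, but a change of a gene's share with depth stays in the extra CV. Of 3570 genes with a mean of at least 50 CPM, 1415 (39.6%) had an extra CV of 0.5 or more, and the median was 0.45. The share past 0.5 fell with level. It was 55.3% of 1847 genes from 50 to under 100 CPM, 28.7% of 1258 genes from 100 to under 300 CPM, 6.48% of 355 genes from 300 to under 1000 CPM and 8.18% of 110 genes from 1000 CPM. Counts of genes past 0.5 in a list are therefore to be read against the level of its genes. As the number of calls also rests on the minimum chosen, 393 genes passed among those of at least 100 CPM.

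Few of the most abundant genes passed 0.5, though their levels did vary beyond counting error. Among the 25 most abundant genes, 24 had an extra CV under 0.5, from 0.20 to 0.40, with C1qc at 0.20 and Gm42418 at 0.40, and mt-Co3 was the exception at 0.58 ± 0.01 (SE over cells). Of 27 homeostatic genes, 1 passed 0.5. All 27 were at 300 CPM or more, where few genes pass: 1 of 6 from 300 to under 1000 CPM and 0 of 21 from 1000 CPM, beside 6.48% and 8.18% of all genes, so the count is near the share of all genes at these levels. The gene that passed was Crybb1, a crystallin, at 0.72 ± 0.02 and 452.5 CPM, and the Fc receptor-like gene Fcrls followed at 0.50 ± 0.01. Of 27 measured lysosomal genes 1 passed, with 0 of 13 from 300 to under 1000 CPM and 0 of 11 from 1000 CPM, beside the same shares. None of the 68 ribosomal protein genes passed, 67 of which were at 300 CPM or more. The smallest values from 300 CPM were 0.15 ± 0.05 for Rabac1 and 0.15 ± 0.03 for Erp29, both of the secretory pathway, followed by Reep5, Atp6v0b (a subunit of the lysosomal proton pump), Tmem59, Selenof, Laptm4a, Bsg, Fam49b and Plekho1 up to 0.19. The rule's genes stood at 0.30 for Tmem119, 0.32 for P2ry12, 0.35 for Siglech and 0.35 for Sall1.

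**Figure D3:**
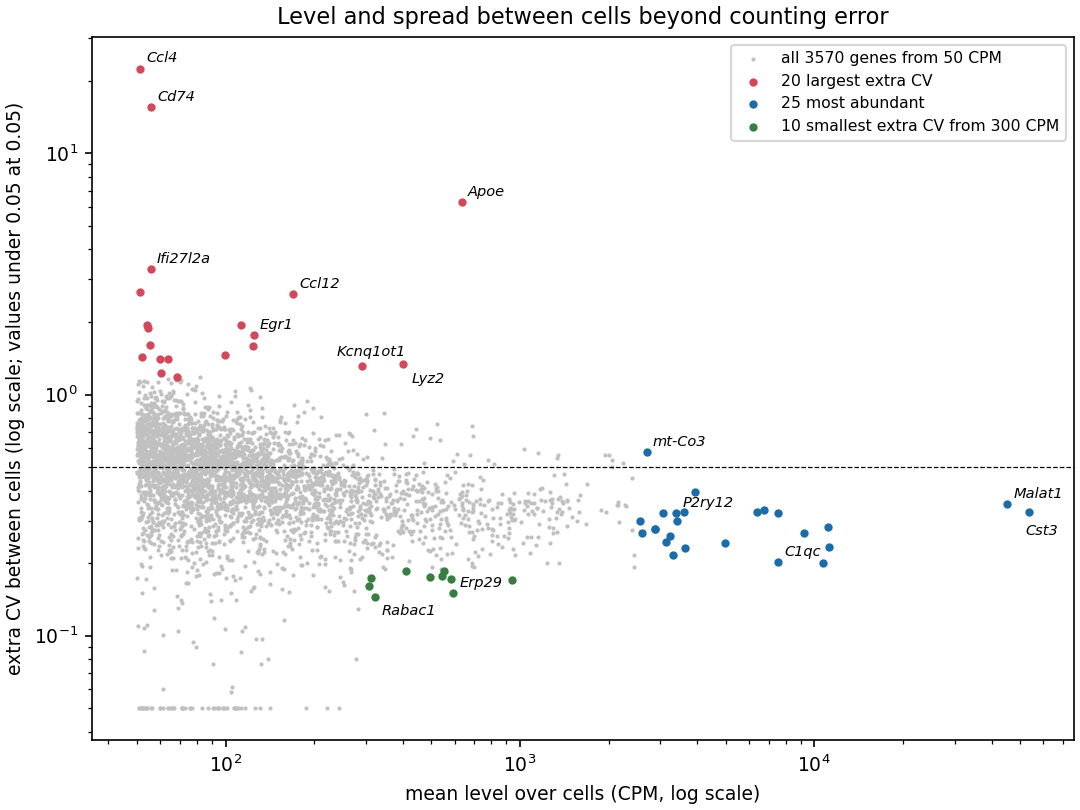
Mean level over cells in CPM against extra CV, both on log scales, for the 3570 genes from 50 CPM. The 25 most abundant genes lie under the dashed line at 0.5 except mt-Co3, while Ccl4, Cd74 and Apoe lie highest, at 22.4, 15.6 and 6.26.

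Of 16 measured identity transcription factors, 4 passed 0.5. By level these were 2 of 8 from 100 to under 300 CPM, beside 28.7% of all genes there, with 1 of 1 below that range, 1 of 4 from 300 to under 1000 CPM and 0 of 3 from 1000 CPM. Mef2c (1318 CPM), Mef2a (1031 CPM) and Irf8 (670 CPM) had 0.31, 0.36 and 0.27, and Bhlhe41 had the largest value at 0.57 ± 0.03. Summed over the list, the extra CV was 0.18. The 14 measured Fc and pattern receptors had 5 calls, 3 of 4 from 100 to under 300 CPM and 2 of 2 below it (28.7% and 55.3% of all genes), led by Clec4a3 at 0.73, and the lowest spread of any list sum at 0.14. The identity factors that passed were Bhlhe41, Rbpj, Runx1 and Zeb2 (0.53 ± 0.02 at 589 CPM). The receptors that passed were Clec4a3, Siglece and the Toll-like receptors Tlr2, Tlr7 and Tlr13, all from 86.4 to 131 CPM.

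**Figure D4:**
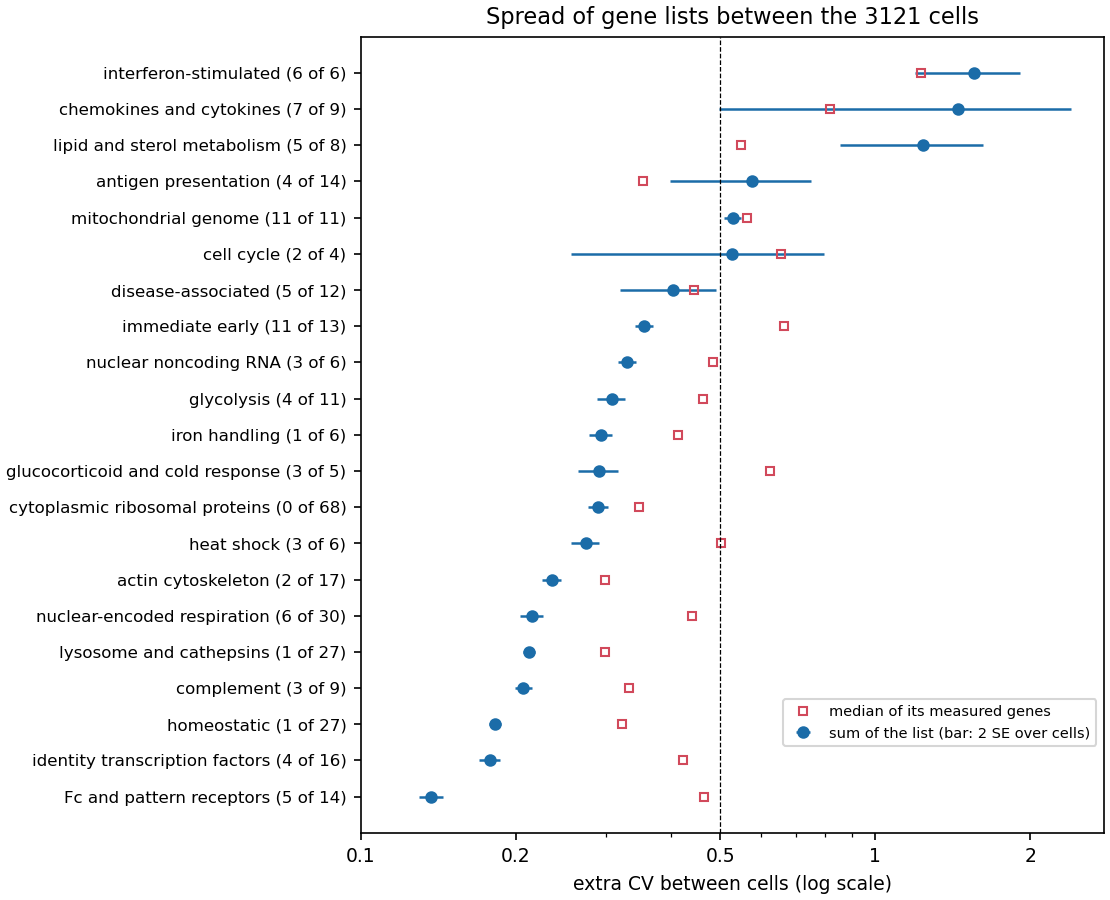
Extra CV, on a log scale, of the summed UMIs of each of 21 gene lists in the 3121 members (blue dots, bars of 2 SE over cells) and the median extra CV of its measured genes (red squares). Counts in brackets are genes at 0.5 or more of those measured; the interferon-stimulated, chemokine and lipid lists lie at 1.55, 1.45 and 1.24, and the Fc and pattern receptor list lies at 0.14.

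The largest spread came from genes carried by few cells. Ccl4, a chemokine that draws immune cells, had an extra CV of 22.4 ± 3.0 at 52.1 CPM. After thinning it was found in 4.29% of cells, 8 cells held 10 or more of its UMIs, and the highest held 377. The 31 cells richest in Ccl4, 1% of the members, carried 79.4% of its UMIs. Ccl3, its neighbour in function, stood at 43.6 CPM with 6 cells of 10 or more UMIs, and 4 cells passed 10 for both. A lone UMI of such a gene can come from free RNA, so only the cells with many UMIs were taken as carriers. Ccl12, a monocyte chemoattractant, was broader, with 173 CPM, an extra CV of 2.62 ± 0.28, 29.4% of thinned cells and 37 cells of 10 or more UMIs. Of 9 measured chemokine and cytokine genes 7 passed 0.5, 4 of 4 from 50 to under 100 CPM and 3 of 4 from 100 to under 300 CPM. All genes passed in 55.3% and 28.7% of cases there. Tgfb1, which keeps the homeostatic state, was even at 0.25 ± 0.03 and 433 CPM. Ccl6 and Ccl9 had 0.98 and 1.04.

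Cd74, the invariant chain of MHC class II, followed with 15.6 ± 1.1 at 72.5 CPM. It had 10 or more UMIs in 8 cells, and 5 of these also had 10 or more of both H2-Aa and H2-Ab1, the chains of a class II molecule. The 8 cells had 5718 to 10542 UMIs in all and 13 to 64 UMIs of the rule's genes. Of the 8, 4 were among the 8 members with 10 or more border associated macrophage UMIs. Without the 39 members that carried 3 or more UMIs of border associated macrophage, monocyte, neutrophil or T and NK genes, Cd74 fell to 21.1 CPM with an extra CV of 3.67 ± 0.54, against 72.5 CPM and 15.6 in all members. H2-Aa fell to 0.889 CPM there, against 22.6 CPM in all members. Most UMIs of Cd74 and H2-Aa in the group thus lay in the 39 cells, which included 6 of the 8. Class I genes were present throughout. B2m, the light chain of class I, stood at 1715 CPM with 0.43, and the heavy chains H2-D1 (679 CPM) and H2-K1 (531 CPM) had 0.74 ± 0.03 and 0.65 ± 0.03, in a range of level where 6.48% of genes passed 0.5. Of 14 measured antigen presentation genes, 4 passed. By range of level (from 50, 100, 300 and 1000 CPM) these were 2 of 4, 0 of 6, 2 of 3 and 0 of 1. The shares of all genes there were 55.3%, 28.7%, 6.48% and 8.18%.

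Apoe, the lipid carrier apolipoprotein E, had 713 CPM and an extra CV of 6.26 ± 0.57. The median cell held 0 of its UMIs per 3000 and the 95th percentile 6, while the highest cell held 332. It was found in 32.0% of thinned cells, 198 cells held 10 or more UMIs and the 31 richest carried 52.3% of all Apoe UMIs. Leaving out the 39 cells with other lineage UMIs moved the level to 526 CPM and left 177 of the 198 cells, with 6.05 ± 0.94. Lyz2, lysozyme of macrophages, had 404 CPM, 1.34 ± 0.07 and 106 cells of 10 or more UMIs, of which 34 also passed 10 for Apoe. Of 12 measured disease-associated genes, a set described in microglia near plaques, 5 passed 0.5, namely Apoe, Lyz2, Ccl6, Cd52 and Cd63. By range of level (from 100, 300 and 1000 CPM) these were 1 of 1, 4 of 5 and 0 of 6. The shares of all genes there were 28.7%, 6.48% and 8.18%. Trem2, Tyrobp and Ctsb of the same list had 0.27, 0.28 and 0.33. Cst7 stood at 20.2 CPM, Itgax at 3.33 CPM and Spp1 at 0.929 CPM, all under the 50 CPM minimum. Of 7 measured lipid genes apart from Apoe 4 passed, 2 of 2 from 50 to under 100 CPM and 2 of 3 from 100 to under 300 CPM, beside 55.3% and 28.7% of all genes. Lpcat2 had 0.24 at 1114 CPM, Npc2 0.31, Abca1, the cholesterol exporter, 0.59, Abcg1 0.66 and the desaturase Scd2 1.08.

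Interferon-stimulated genes were low and uneven. Of 26 listed, 20 were under 50 CPM, among them Ifit3 at 14.6 CPM and Isg15 at 19.1 CPM, and all 6 that were measured passed 0.5. By level these were 3 of 3 from 50 to under 100 CPM and 3 of 3 from 100 to under 300 CPM. All genes passed in 55.3% and 28.7% of cases there. The 6 included Bst2 (tetherin, 187 CPM, 0.94), Lgals3bp (125 CPM, 1.04), Trim30a (110.0 CPM, 0.85), Ifi27l2a (55.8 CPM, 3.32 ± 0.15) and Slfn2 (52.5 CPM, 1.95 ± 0.10). Their median of 1.23 compares with medians of 0.53 and 0.42 for all genes from 50 to under 100 and from 100 to under 300 CPM. The summed list had an extra CV of 1.55 ± 0.18, with 0, 2 and 7 UMIs per 3000 at the 5th, 50th and 95th percentile and 111 in the highest cell. The sum ran over all 26 listed genes, the 20 low ones included, and spread more than the median of the 6 measured genes. Its highest cell lay far above the 95th percentile.

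Promoter windows of 3 of these 6 genes are shown since interferon acts through a known element. The letters GAAANNGAAA, the core of the interferon-stimulated response element, were searched on both strands together with GGAANNGAAA, the composite bound by PU.1 and an interferon regulatory factor. Capitals mark the first in Bst2 (chr8:71537423-71537722) and Trim30a (chr7:104465144-104465443), both on the minus strand, and the second in Slfn2 (chr11:83064862-83065161, plus strand), RefSeq on GRCm38.p6.
Bst2: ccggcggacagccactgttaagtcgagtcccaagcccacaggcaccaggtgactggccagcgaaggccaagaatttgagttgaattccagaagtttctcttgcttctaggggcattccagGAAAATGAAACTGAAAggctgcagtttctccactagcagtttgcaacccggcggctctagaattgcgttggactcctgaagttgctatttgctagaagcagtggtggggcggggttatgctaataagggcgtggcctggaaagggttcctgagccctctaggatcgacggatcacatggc
Trim30a: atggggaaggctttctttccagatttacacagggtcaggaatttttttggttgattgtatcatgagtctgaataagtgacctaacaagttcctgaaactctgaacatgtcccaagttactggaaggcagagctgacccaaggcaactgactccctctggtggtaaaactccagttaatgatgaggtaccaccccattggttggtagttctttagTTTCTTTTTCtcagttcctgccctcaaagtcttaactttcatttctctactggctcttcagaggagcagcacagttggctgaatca
Slfn2: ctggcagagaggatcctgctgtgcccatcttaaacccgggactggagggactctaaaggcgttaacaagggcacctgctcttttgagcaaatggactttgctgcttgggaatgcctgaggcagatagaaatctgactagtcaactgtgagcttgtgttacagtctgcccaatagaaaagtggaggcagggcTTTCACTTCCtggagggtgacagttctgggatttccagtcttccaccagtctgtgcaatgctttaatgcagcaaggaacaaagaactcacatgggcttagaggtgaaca
Bst2 held 2 overlapping matches, the first of which began 130 bases before the start. The match began 36 bases before the start in Trim30a and 59 bases before it in Slfn2. GAAANNGAAA was found in 3.44% of all 32851 windows and in 15 of 23 windows of the interferon list (65.2%), which cover 20 of its 26 genes. The composite was found in 2.72% of all windows and 2 of the 23 (8.70%). Lgals3bp held neither. Ifi27l2a had no window in the table used.

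Immediate early genes, whose transcripts rise within minutes of a stimulus, passed 0.5 in 11 of 13 measured cases (16 more listed genes were under 50 CPM), against 39.6% of all genes. Jun, a subunit of AP-1, had 1019 CPM and 0.59 ± 0.02, with 0, 3 and 8 UMIs per 3000 at the 5th, 50th and 95th percentile. Btg2 (684 CPM), Jund (669 CPM), Zfp36l1 (525 CPM) and Junb (489 CPM) had 0.68, 0.56, 0.75 and 0.66, at levels where 6.48% of genes passed. Fos, the partner of Jun, was low at 55.4 CPM and had 1.90 ± 0.08, Egr1 had 126 CPM and 1.76 ± 0.07 and Rgs1, which damps G protein signals, had 121 CPM and 1.59 ± 0.08. No cell held 10 or more UMIs of Fos and the highest held 8. The summed list, over all 29 genes, had an extra CV of 0.36 ± 0.01, below the median of the 13 measured genes at 0.66. Heat shock genes passed 0.5 in 3 of 6 cases, with Hspa5, a chaperone of the endoplasmic reticulum, at 0.53 ± 0.03 and 781 CPM and Hsp90ab1 at 0.44. By range of level (from 50, 100 and 300 CPM) these were 1 of 1, 1 of 2 and 1 of 3. The shares of all genes in these ranges were 55.3%, 28.7% and 6.48%. Of the glucocorticoid and cold list 3 of 5 passed, which were 1 of 1, 1 of 3 and 1 of 1 in the same ranges. They were Sgk1 at 0.63 (395 CPM), Mt1 at 0.81 (211 CPM) and Sult1a1 at 0.69, while the cold-inducible Cirbp and Rbm3 had 0.38 and 0.35.

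All 11 measured genes of the mitochondrial genome passed 0.5, at 0.52 to 0.63. They made up 8 of the 9 genes from 1000 CPM that passed, the last of the 9 being Jun. By range of level (from 100, 300 and 1000 CPM) the 11 were 2 of 2, 1 of 1 and 8 of 8. The shares of all genes there were 28.7%, 6.48% and 8.18%. mt-Co3, a subunit of cytochrome oxidase, had 2707 CPM with 1, 7 and 18 UMIs per 3000 at the 5th, 50th and 95th percentile. The summed list had 0.53 ± 0.01. The rule capped the mitochondrial share, and with a limit of 5% in place of 10% the value was 0.49. Of 30 respiratory chain genes of the nucleus 6 passed, with Cox7b (0.62), Ndufa1 (0.61) and Cox6c (0.56) highest. By level these were 2 of 4 from 50 to under 100 CPM and 4 of 22 from 100 to under 300 CPM. All genes passed in 55.3% and 28.7% of cases there. None of 4 passed from 300 to under 1000 CPM. Of the 11 mitochondrial genes 8 were from 1000 CPM, where no nuclear gene of this list lay, so the counts are not alike in level. The sum of the nuclear genes had 0.22 ± 0.01. In glycolysis 4 of 11 passed, 2 of 4 and 2 of 5 in the 2 lower ranges (55.3% and 28.7% of all genes). Gapdh had 0.46 (579 CPM) and Pfkfb3, an activator of the pathway, 0.72. In the actin list Tmsb10 (0.80) and Tagln2 (0.73) passed of 17. These were 1 of 1 and 1 of 5 in those ranges, with 0 of 9 from 300 to under 1000 CPM (6.48% of all genes). Of the iron genes 1 of 6 passed, the exporter Slc40a1 at 0.55, which was 1 of 2 from 100 to under 300 CPM (28.7% of all genes). The ferritin chains Fth1 (2407 CPM) and Ftl1 (1455 CPM) had 0.45 and 0.36. Among complement genes 3 of 9 passed, the anaphylatoxin receptors C5ar1 (0.99), C3ar1 (0.68) and C5ar2 (0.55). They were 3 of 4 from 100 to under 300 CPM, beside 28.7% of all genes.

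Of 6 measured nuclear noncoding RNAs 3 passed, with a median of 0.48 and 0.33 ± 0.01 for the sum. The 3 were 1 of 1 from 50 to under 100 CPM and 2 of 3 from 100 to under 300 CPM. All genes passed in 55.3% and 28.7% of cases there. Malat1 had 0.35 ± 0.01. Kcnq1ot1, an imprinted noncoding RNA, had 1.31 ± 0.05 at 288 CPM and Neat1, which builds paraspeckles, had 1.16 ± 0.10 at 62.9 CPM. Of the cell cycle list 21 of 25 genes were under 50 CPM, and 2 of the 4 measured passed, the histone Hist1h2ap (1.40) and Hmgb2 (0.84). They were 2 of 2 from 50 to under 100 CPM, beside 55.3% of all genes. All 9 measured histone genes named Hist passed, 7 of them from 50 to under 100 CPM, where 55.3% of all genes passed, and 2 from 100 to under 300 CPM, where 28.7% did. They were led by Hist1h1d, a linker histone, at 2.66 ± 0.12 and Hist1h2ac at 1.95 ± 0.06. Their sum had 0.78 ± 0.02. Rad50 (1.43), a DNA repair factor, Emp3 (1.61), a membrane protein, and Amn1 (1.18) were also among the 20 genes of largest extra CV, as were Hist1h4d (1.46) and Hist1h2be (1.23).

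Which genes varied together was described by Pearson r over the 3121 cells, on counts thinned to 3000 UMIs. The cells share 1 library, its free RNA and its preparation, so r is a description. Of 6370665 pairs of the 3570 genes, 1085 had r of 0.2 or more and 37 had −0.2 or less. Of the 1085, 807 were pairs among ribosomal protein genes and 3 other translation-linked genes (Fau, Tpt1 and Eef1a1), and 52 were pairs among mitochondrial genes. With log2(count + 1) the number was 848.

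Mitochondrial genes formed the tightest set, with 0.65 for mt-Co3 with mt-Co2 and with mt-Atp6. The C1q chains came next, at 0.55 for C1qa with C1qb and 0.49 for C1qc with each of these. Cst3 went with C1qb (0.48), Itm2b (0.36), Fcer1g (0.36) and Tyrobp (0.35). Ribosomal genes were linked more weakly, with 0.39 for Rps29 with Tpt1 and 0.36 with Rplp1. Counting error lowers r more for low genes than for abundant ones, and each of these sets holds abundant genes.

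Malat1 had most of the negative pairs, many of them with abundant genes, though its r was near 0 with some, such as P2ry12 (0.0045) and Ctss (−0.0045). It had 27 of the 37 negative pairs, with −0.49 for Tmsb4x, −0.39 for Actb, −0.34 for Cst3 and −0.28 for Fau. Its positive partners were fewer, led by Rrbp1 (0.27), Macf1, a cytoskeletal linker (0.24), and Hnrnpa2b1 (0.22), and Kcnq1ot1 (0.21, or 0.17 on the log scale) was among its 8 partners at 0.2. The thinned level of Malat1 had r of −0.25 with the total UMIs of the cell, and −0.01 with its mitochondrial share.

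Links between homeostatic receptors were weaker, and some of them had no partner at 0.2. P2ry12, a gene of the rule, went with Fcrls (0.27), Sparc (0.24), Gpr34 (0.22) and Cd164 (0.22), and against Fth1 (−0.28), Lyz2 (−0.23), Rps29 (−0.22) and H2-D1 (−0.21). Tmem119 reached 0.2 with Selplg alone (0.22), and Sall1 and Siglech with no gene. Cx3cr1 also had no partner at 0.2. Counting error lowers r, most for Sall1, the least abundant gene of the rule, and its part in these missing links was not tested. Class I genes went together, at 0.38 for B2m with H2-D1 and 0.37 for H2-K1 with H2-D1. They were not apart from other sets, since Ctss went with H2-D1 (0.37) and also with C1qb (0.38). Lyz2 had 17 partners, led by Apoe (0.35) and Ctss (0.32) and with mt-Co3 at 0.28 (0.17 on the log scale); its r with the mitochondrial share of the cell was 0.32.

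Partners of the most uneven genes were few. Apoe went with Cd74 (0.37) and Lyz2 (0.35), and for Cd74 Lyz2 was next (0.24). On log2(count + 1) these fell to 0.22, 0.19 and 0.16. Without the 39 cells with other lineage UMIs, 970 pairs among all genes reached 0.2, against 1085 with them. Whether the pairs of Apoe, Cd74 and Lyz2 stayed at 0.2 there was not tested. Ifi27l2a went with B2m (0.25), Bst2 (0.25) and H2-D1 (0.20), and Ccl12 with Parp14 (0.26) and Slfn2 (0.24). On the log scale B2m alone of these 5 pairs stayed at 0.2 or more (0.21), and the pairs of Ccl12 fell to 0.08 and 0.12. Ccl4 had no partner at 0.2, the highest being Slc15a3 (0.19), Nfe2l2 (0.18) and Cd83 (0.17). Early genes were linked little: the highest r of Jun, with Jund, was just under 0.2 (0.199), and it had 0.16 with Btg2, Fos had 0.14 with Jund and 0.13 with Jun, Egr1 had 0.15 with Btg2, and the highest of Rgs1, with mt-Atp6, was 0.07. Histone pairs lay between −0.02 and 0.18, with Hist1h2ac and Hist1h4d highest. These genes had few UMIs per cell, and the part of this in their low r was not tested.

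**Figure D5:**
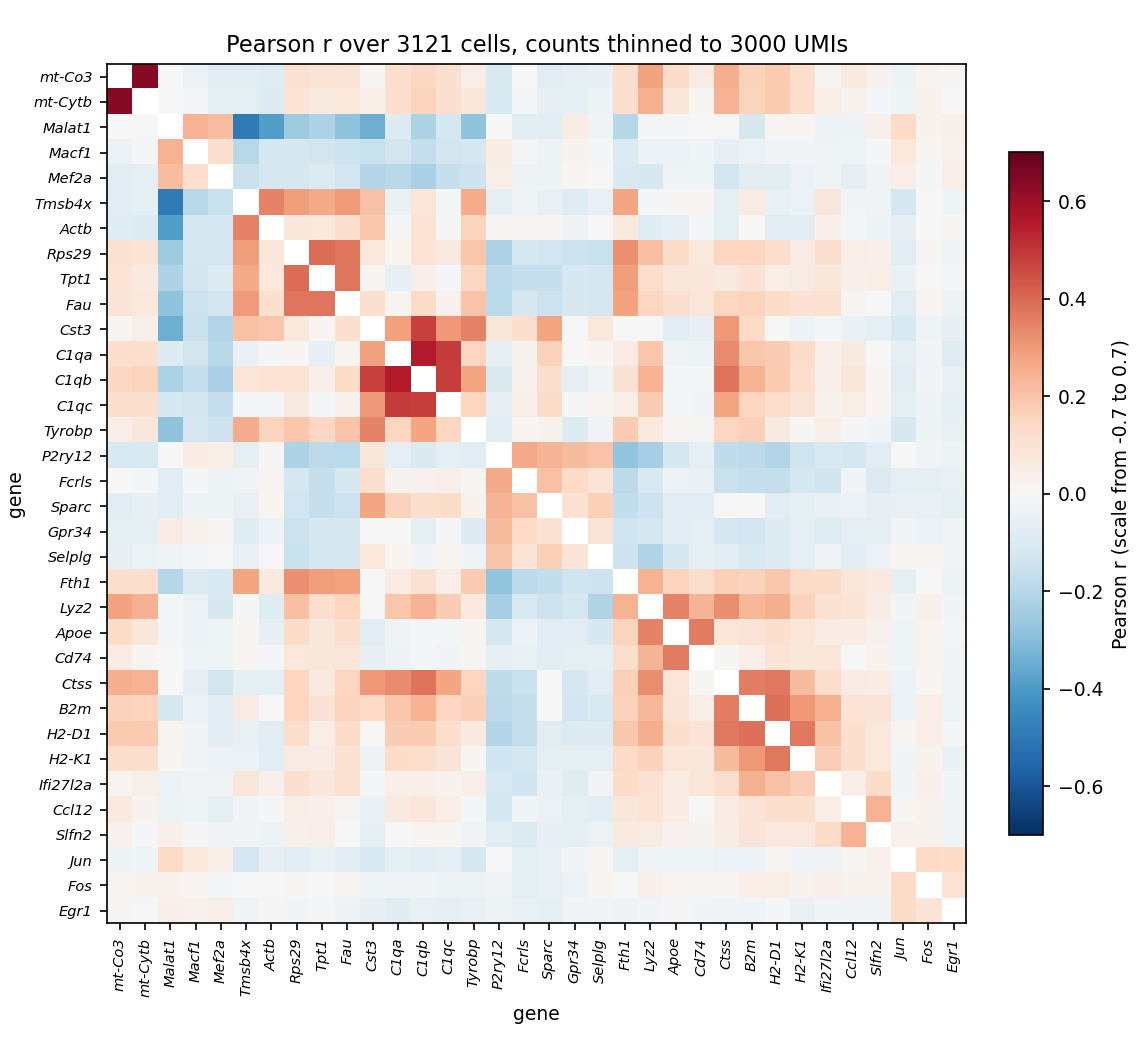
Pearson r over the 3121 members between 34 genes named in the text, on counts thinned to 3000 UMIs, red for positive and blue for negative values. Blocks of mitochondrial genes, of C1q with Cst3 and of class I genes with Ctss are red, and Malat1 is blue against Tmsb4x (−0.49) and Actb (−0.39).

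The members were split into 461 cells of under 4000 UMIs, 1493 of 4000 to under 6000 and 1167 of 6000 or more. Of 3771 genes with at least 50 CPM in the deepest or shallowest cells, 19 (0.504%) were 1.5-fold or more higher in the deepest and 21 (0.557%) were 1.5-fold or more lower, each with an interval that left out 1. With each cell thinned to 3000 UMIs first, 83 genes passed 1.5-fold in either direction, against 40 without thinning. Cd74 had the largest ratio, at 123 CPM in the deepest and 22.5 CPM in the shallowest cells, and H2-Ab1 followed with 53.9 and 12.2 CPM. The 8 cells with 10 or more Cd74 UMIs had at least 5718 UMIs in all, so none lay in the shallowest range. Khdrbs3, an RNA binding protein, had 85.6 and 43.2 CPM (log2 ratio 0.99, interval 0.63 to 1.36), and Ssrp1, Erh, Ndufa12, Papd4 and Nudt4 had log2 ratios of 0.68 to 0.80. The lowest were the noncoding Gt(ROSA)26Sor with 30.2 and 59.7 CPM (log2 −0.98, −1.32 to −0.63), Gm26699 (−0.95), the ribonuclease Rnase6 (−0.87) and Gm26740 (−0.85), followed by Milr1, Ssbp2, Hist4h4 and Kansl3 up to −0.70. Malat1 stood at 55595 CPM in the shallowest, 45205 in the middle and 40575 in the deepest cells, a log2 ratio of deepest over shallowest of −0.45, which is under 1.5-fold. Actin genes ran the other way, with Tmsb4x at 11770 and 9336 CPM (log2 0.33) and Actb at 6806 and 5622 CPM (0.28). P2ry12, Cx3cr1 and the other homeostatic genes held none of the calls.

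Set against the 51 cells under the marker minimum, the members were higher in microglial genes and lower in genes of other macrophages and monocytes. The rule made this split, so no test is given. Those 51 cells had a median of 5588 UMIs and 313360 UMIs in all. Of 4055 genes, 1123 (27.7%) were 1.5-fold or more higher and 705 (17.4%) 1.5-fold or more lower in the members, each with an interval that left out 1. All 11 further microglial markers were among the higher genes, as were 26 of 27 homeostatic genes, with log2 ratios of members over the 51 cells of 2.83 for Sparc (3620 and 511 CPM) and 0.83 for C1qa (11100 and 6245 CPM). The homeostatic list includes P2ry12, a gene of the rule, and overlaps the 11 markers, so its count was partly set by the split. Sall1 stood at 418 CPM in the members and 19.1 CPM in the 51 cells. Among genes outside the rule the highest ratios included Capn3 (calpain 3, 105 CPM in the members), Rilpl1 (96.6 CPM), Khdrbs3 (77.3 CPM), Gp9 (57.2 CPM) and Tgfa (transforming growth factor alpha, 54.8 CPM). These had no UMI in the 51 cells and were at least 10.9-fold, 10.1-fold, 8.07-fold, 5.98-fold and 5.73-fold higher in the members, against a floor of 3 UMIs over the 51 cells. Upk1b and Spsb1 were also called, with log2 ratios of 4.70 and 4.68 that rest on 1 UMI each in the 51 cells (intervals 2.22 to 10.01 and 2.20 to 9.99).

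On the other side, S100a6 had 0.328 CPM in the members and 903 CPM in the 51 cells. Plac8 and Ly6c2, monocyte genes, had 0.929 and 0.109 CPM in the members, against 899.9 and 306 CPM in the 51 cells. Pf4, a chemokine of border associated macrophages, had 3.22 and 1334 CPM, Lgals3, galectin 3, had 1.53 and 836 CPM and Mgl2, a lectin, had 0.164 and 326 CPM. No UMI of Ahnak or Ifitm6 was found in the members, against 326 and 281 CPM. The authors' table keeps a gene that is in at least 3 cells of the library, so such zeros were counted in this group. All 8 border associated macrophage genes and the 7 monocyte genes measured were lower in the members, and 67 of 68 ribosomal protein genes were too, with a summed level of 66348 CPM in the members and 141811 CPM in the 51 cells. Apoe stood at 713 CPM in the members and 28794 CPM in the 51 cells.

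The members also differed from control cells outside the UMI range. The marker minimum was not applied to those cells. Their summed marker UMIs began at 0 in both sets, with medians of 9 under 3000 UMIs and 131.5 from 12000 UMIs. The part of this unlike filter in the differences below was not tested. Against the 2243 cells of fewer than 3000 UMIs, which had a median mitochondrial share of 3.58% where the members had 1.43%, 1150 of 3948 genes (29.1%) were 1.5-fold or more higher in the members and 569 (14.4%) lower. All 68 ribosomal protein genes, 29 of 30 nuclear respiration genes and 15 of 16 actin genes were higher in the members, and all 12 mitochondrial genes and all 7 nuclear noncoding RNAs measured were lower. Malat1 stood at 43803 CPM in the members and 94682 CPM in these cells. The rule's genes summed to 7508 CPM in the members and 7993 CPM in these cells. Of the 4, Sall1 was called higher in the members, at 418 and 255 CPM (log2 0.71, interval 0.61 to 0.82), and Siglech stood at 2119 and 2583 CPM. Against the 476 cells of 12000 UMIs or more, none of 3778 genes (0%) was 1.5-fold or more higher in the members and 12 (0.318%) were lower. The 12 were the neutrophil genes S100a8, S100a9, Ngp and Camp, the class II genes Cd74, H2-Aa, H2-Ab1 and H2-Eb1, and Apoe, Lyz2, Mrc1 and Ifitm3. The neutrophil list summed to 2.68 CPM in the members and 1529 CPM in those cells.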

How the data were processed

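Microglia from 3 genotypes were profiled with the 10x Chromium 3′ assay, and only the control library was analysed here. The deposited values are raw UMI counts per gene and cell, made by the authors with Cell Ranger (STAR) on mm10 and read into Seurat with minimums of 200 genes per barcode and 3 cells per gene. The annotation release is not given in the sources used here. The members and the 21 pathway and 15 marker lists were chosen with earlier results of these data known. Levels are pooled CPM with exact Poisson intervals at 95%, shares have Clopper-Pearson intervals, ratios exact conditional binomial intervals, and all cover counting error only. The extra CV is the square root of the mean over cells of x(x−1)/(T(T−1)), divided by the squared mean of x/T, minus 1, where x is the UMIs of the gene and T those of the cell; its SE is a delta-method estimate over cells. It was tested on simulated data. A call for a ratio needed 1.5-fold, an interval without 1 and 50 CPM on either side. Thinning used a fixed seed. Values of some genes that met the rule below are not reported here. Named genes were the 25 most abundant, the markers, the 20 largest and 10 smallest extra CVs, up to 4 most abundant and 3 most uneven members of each list, the highest r of the 10 most uneven genes, and the 8 highest and 8 lowest ratios; other genes in the text were picked after their values were seen. Locations came from GENCODE M21 by symbol, found for 182 of 183 genes, and promoters from RefSeq GRCm38.p6. Python 3.11.15, numpy 2.4.6, scipy 1.17.1, pandas 2.3.3 and matplotlib 3.10.9 were used.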

Additional observations from a re-analysis of the deposited data

How the results depend on the processing

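The group is 1 library from pooled mice, so no error between animals can be given, and a UMI of a rare gene may be free RNA. Of 40 recomputed counts and shares, 27 stayed within 1.5 times the reported count or within the counting interval of the reported share; among 286 extra CVs of lists and of the 20 most uneven genes, 256 stayed within their 95% sampling error over cells. The group had 2937 to 3139 cells with other marker or mitochondrial limits and 2221 from 4000 to under 8000 UMIs, and had 2035 when cells with 3 or more UMIs of any other blood lineage were left out, B cell genes included. The 50 most abundant genes held 26.69% of UMIs, against 26.67% with the 5% mitochondrial limit, 26.72% without other lineage cells when B cell genes were not used (chosen after seeing the data), 26.84% from 4000 to under 8000 UMIs, 26.85% without cells of any other lineage, 26.83% as a mean over cells, and 23.3% without mitochondrial genes and nuclear RNAs. Genes at an extra CV of 0.5 numbered 3745 from 20 CPM, 393 from 100 CPM and 8444 with no minimum, and the thresholds of 0.7 and 0.3 gave 387 and 2981. Thinning each cell to 3000 UMIs first gave 83 genes past 1.5-fold by depth, against 40 without it. No paired analysis was possible because the groups compared are cells of 1 library and no result comes from a test.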

Other observations

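Several further genes were uneven at levels where few genes were. An extra CV of 0.5 was passed by 23 of 355 genes from 300 to under 1000 CPM and 9 of 110 genes from 1000 CPM, and beside those already described they included Sox4, a transcription factor of progenitor cells (346 CPM, 0.84 ± 0.03), Cd52, a small surface glycoprotein (303 CPM, 0.83 ± 0.04), Cd63, a tetraspanin of late endosomes (429 CPM, 0.68 ± 0.03), and the paired ion channel genes Tmem176a (313 CPM, 0.71 ± 0.02) and Tmem176b (598 CPM, 0.57 ± 0.02). Nav3, a microtubule-linked protein, had 349 CPM and 0.62 ± 0.02. Ltc4s, leukotriene C4 synthase, had 811 CPM and 0.51 ± 0.01. These genes were picked after their values were seen, and no cause of their spread was tested.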
